A study of Mus musculus with 12 samples.

Results

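This account describes 10 genes for cytokines and chemokines that B cells can make: Ccl22, Ccl17, Ccl3, Ccl4, Il10, Il6, Ebi3, Tnf, Lta and Ltb. They were chosen by gene symbol as known secreted or surface-bound signals of B cells, out of 59762 genes named in the deposited count tables, and each was found once in every table. The choice was made with earlier results of these data known. Shares and medians of the members beside those of all genes are therefore descriptive only. Poly(A) RNA was sequenced from mouse splenic B cells, purified by removing cells that carry CD43, a surface protein of T cells, myeloid cells and activated B cells. The series compares wild-type (WT) mice with double knockout (DKO) mice, in which Hnrnpa1 and Hnrnpa2b1 were deleted by Cre-loxP recombination. The products of both genes are nuclear RNA-binding proteins that take part in splicing. The study's stated interest is their part in the germinal center B cell response. There were 3 WT and 3 DKO libraries of untreated cells, which went into RNA extraction without culture. A further 2 WT and 2 DKO libraries came from cells held in medium with serum for 48 h with 1 µg/mL anti-CD40, which stands in for T cell help, and 10 µg/mL anti-IgM, which stands in for antigen. Another 2 libraries of untreated WT cells, titled differently and held in a table of their own, are called the additional WT libraries. The sources used here do not give the Cre driver, the strain or the age of the mice. Whether each library comes from its own mouse is not labelled, and the p-values then describe the spread among libraries, which may be technical.

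Cytokines are small proteins through which immune cells signal to their neighbours, and chemokines are the subset that direct cell migration. CCL22 and CCL17 share the receptor CCR4 and draw helper and regulatory T cells towards activated B cells and dendritic cells. CCL3 and CCL4 recruit T cells and myeloid cells. IL-10 dampens inflammation, and IL-6 promotes plasma cell and T follicular helper responses. EBI3 is the shared subunit of the heterodimers IL-27 and IL-35. TNF, lymphotoxin alpha (Lta) and lymphotoxin beta (Ltb) belong to the TNF family, and the lymphotoxins maintain the architecture of lymphoid follicles. Several of these genes are induced through NF-kB, and many of their mRNAs are short-lived because proteins bind AU-rich elements in the 3′ untranslated region (3′ UTR).

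Promoter sequence is shown first for Ccl22 and Ebi3, the members that were higher in DKO cells in both states. Windows of the 3′ UTR follow for Tnf, Il6, Il10, Ccl3, Ccl22 and Ebi3. The 250 bases before the transcription start are those of the RefSeq promoter table (GRCm38.p6), in which 8 of the 10 genes were found. Il10 and Ccl4 had no entry. Capitals mark an exact match to the NF-kB site consensus GGGRNNYYCC, searched on both strands. Here R is A or G, Y is C or T and N is any base. Sites that differ from it at any base were not counted. The Ccl22 window lies at chr8:94745434-94745683 (+ strand) and the Ebi3 window at chr17:55952373-55952622 (+ strand).
Ccl22: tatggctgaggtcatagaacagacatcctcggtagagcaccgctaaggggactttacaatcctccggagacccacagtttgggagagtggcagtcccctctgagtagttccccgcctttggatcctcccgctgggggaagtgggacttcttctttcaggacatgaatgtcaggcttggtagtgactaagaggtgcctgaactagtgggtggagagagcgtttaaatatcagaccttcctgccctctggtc
Ebi3: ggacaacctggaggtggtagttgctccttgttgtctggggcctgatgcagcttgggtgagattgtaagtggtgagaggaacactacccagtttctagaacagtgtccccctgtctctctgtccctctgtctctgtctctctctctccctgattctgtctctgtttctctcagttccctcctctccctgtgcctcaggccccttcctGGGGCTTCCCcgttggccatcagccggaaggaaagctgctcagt
The genes themselves lie at chr8:95472218-95478327 and chr17:56259640-56264022 in GRCm39, the build of the untreated and stimulated tables. The Ebi3 match begins 44 bases before the start, and the Ccl22 window held no exact match. Il6 and Ltb also held 1 match each, beginning 44 and 87 bases before the start, so that 3 of the 8 windows held one. Among all 32851 promoter windows of this length, 7.25% did. The sequence TATAAA, searched on the sense strand, was in the windows of Tnf and Lta, and in 7.59% of all windows.

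The AU-rich pentamer ATTTA was counted on the sense strand of the longest annotated 3′ UTR of each gene (GENCODE M21, GRCm38), with overlapping matches counted. Tnf held 8, Il6 held 10, Il10 held 6, Ccl3 held 5, Lta held 3, Ccl22 and Ccl4 held 2 each and Ebi3 held 1, while Ccl17 and Ltb held 0. The 3′ UTRs differ in length, from 245 bases in Ebi3 to 1813 bases in Ccl22 among those with a pentamer. Per kb, Ccl3 held 12.2, Tnf 10.5, Il10 8.50, Ccl4 6.62, Il6 6.00, Lta 5.24, Ebi3 4.08 and Ccl22 1.10. Of 21010 mouse genes with an annotated 3′ UTR, 65.2% held at least 1. The longer element TTATTTATT, which contains the pentamer, was present 5 times in Tnf and once in Lta, and in 7.67% of all 3′ UTRs. Windows of 30 bases around the densest run of pentamers are shown with each pentamer in capitals. The Tnf window held 5, and those of Il10, Ccl22 and Ebi3 held 1 each.
Tnf, chr17:35199677-35199706 (- strand): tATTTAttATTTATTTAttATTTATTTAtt
Il6, chr5:30019684-30019713 (+ strand): atttttaATTTAttgataATTTAaataagt
Il10, chr1:131024385-131024414 (+ strand): tctctccgaaatATTTAttacctctgatac
Ccl3, chr11:83648075-83648104 (- strand): ttgaaattttATTTAATTTAatcctattgg
Ccl22, chr8:94750657-94750686 (+ strand): gtgaaaccctaaATTTAccaagaatcaact
Ebi3, chr17:55956972-55957001 (+ strand): gtgaactttgtgATTTAattagaaagacgg
Members with pentamers were found among genes that were higher, lower and not called in DKO cells, as described below by gene.

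Library totals lay between 15090953 and 21731893 counts. Levels are given as CPM, a gene's share of its library's total count scaled to the same total in every library. Hnrnpa1 was lower in DKO cells by a log2 fold change of -2.46 ± 0.30 (SE) untreated and -2.72 ± 0.20 stimulated. Hnrnpa2b1 was lower by -2.03 ± 0.20 and -2.19 ± 0.20, and the genotypes did not overlap for either gene. Transcript remained in untreated DKO cells, at means of 125 CPM for Hnrnpa1 and 447 CPM for Hnrnpa2b1. The untreated WT means were 726 and 1920 CPM. Protein levels are not part of these data. Summed levels of 6 B cell markers were 3315 to 3824 CPM in untreated WT and 2650 to 3092 CPM in untreated DKO libraries, and 5711 to 6183 and 4143 to 4553 CPM in stimulated ones. Of 8 T cell markers, Cd3e, Cd3d, Cd4, Cd8a and Cd8b1 stayed under 1 CPM in every library. Cd3g and Lat reached at most 1.72 and 1.83 CPM, while Lck lay between 44.3 and 175 CPM. By Xist and the Y-linked gene Ddx3y, WT library 2 and DKO library 1 of the untreated cells read as female and the other 10 libraries as male. Ccl3, Ccl4 and Il6 were higher in the library that read as female than in the other libraries of both untreated groups, and Ccl22, Ltb and Ebi3 lower. The labels give no sex, so results are also given for the male libraries where they bear on a call.

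Compared per kilobase of exon, Ccl22 was the most abundant of the 10 transcripts and Ebi3 the next in all 5 groups. In untreated WT cells Ccl22 stood at 248 ± 58.3 CPM per kb (SD, n = 3), Ebi3 at 56.7 ± 8.57 and Ccl3 at 31.4 ± 10.3. Ltb, Il6, Tnf and Ccl4 followed with means from 25.8 down to 11.5 CPM per kb, Il10 at 4.05 ± 1.27 and Lta at 3.35 ± 1.05. Ccl17, the partner of Ccl22 at the same locus, was close to undetected at 0.704 ± 0.272 CPM per kb. In stimulated DKO cells Ccl22 reached 2890 ± 79.3 CPM per kb (n = 2), with Ebi3 at 134 ± 14.5. Per-library values of all 10 transcripts, plotted on log axes, show these levels beside their spread.

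**Figure D1:**
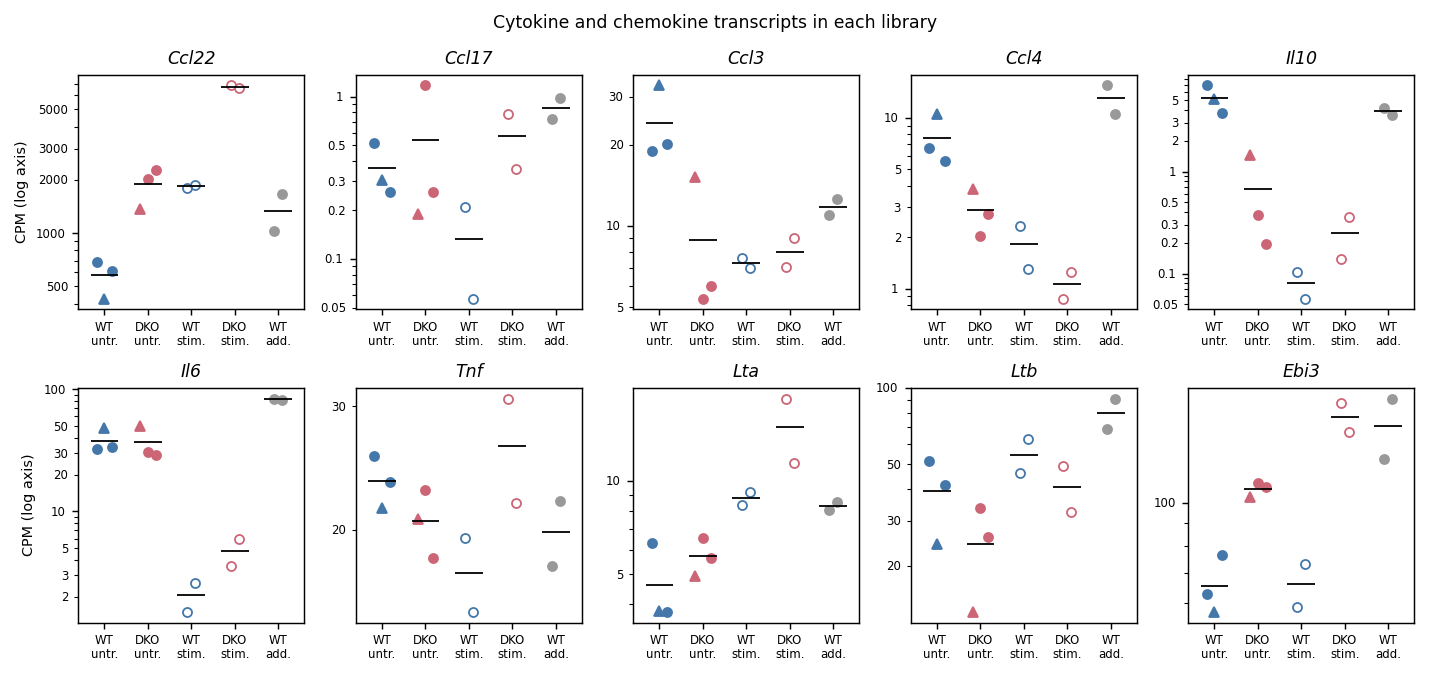
Level of each of the 10 transcripts in every library, in CPM on a log axis, for untreated (untr.) and stimulated (stim.) WT and DKO cells and the additional (add.) WT libraries; points are libraries, triangles mark libraries that read as female, open circles are stimulated cells and bars are group means. Ccl22 climbed from 427 to 691 CPM in untreated WT to 6588 and 6849 CPM in stimulated DKO cells, while Il10 and Il6 were lowest in stimulated cells.

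In untreated cells the question was whether cytokine transcripts differ between DKO and WT cells before any stimulation. Among the 10 genes, Ccl22 and Ebi3 were higher in DKO cells, while Il10, Ccl3 and Ccl4 were lower. With edgeR's quasi-likelihood test and Benjamini-Hochberg adjustment over 13561 genes, 5 of the 9 members tested passed an adjusted p of 0.05, 2 of them higher and 3 lower. Of all genes tested, 19.5% passed, 8.81% higher and 10.6% lower. The same 5 members had no overlap between the genotypes on the TMM-scaled level, as did 39.2% of all genes. The median log2 fold change of the 9 members was -0.12, beside -0.01 for all genes. All 5 calls were lost when the additional WT libraries were counted as WT, where the 5 adjusted p-values lay between 0.052 and 0.751 and the number of genes called fell from 2638 to 319.

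Ccl22 was measured at 691, 427 and 614 CPM in the WT libraries and at 1363, 2036 and 2265 CPM in the DKO libraries. Every DKO library was above every numbered WT library, and the library that read as female was the lowest of each group. The difference was a log2 fold change of 1.78 ± 0.21 (adjusted p = 0.00209, edgeR), or 3.44-fold. In the male libraries alone it was 1.80 (adjusted p = 1.8e-06). The additional WT libraries held 1025 and 1658 CPM, between the groups and partly within the DKO range, and counting them as WT gave 1.16 (adjusted p = 0.143). Ccl17, 58.8 kb from Ccl22 on chromosome 8, had 20 counts over the WT and 26 counts over the DKO libraries and did not reach the filter on low counts. The ratio of its CPM, DKO over WT, was 1.51, with a 95% interval of 0.808 to 2.84 that covers counting error only.

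The chemokines of chromosome 11, whose genes lie 13.2 kb apart, were lower in DKO cells. Ccl3 stood at 19.0, 33.2 and 20.1 CPM in WT and at 15.2, 5.39 and 5.98 CPM in DKO libraries. The ranges did not overlap, but the DKO library that read as female, at 15.2 CPM, lay nearer to the WT range than to the other DKO libraries. Its log2 fold change was -1.37 ± 0.38 (adjusted p = 0.0366, edgeR), and -1.70 in the male libraries. The call was lost when WT library 2, WT library 3, DKO library 2 or DKO library 3 was left out, with adjusted p-values from 0.072 to 0.130, and with DESeq2 (adjusted p = 0.0557). Ccl4 stood at 6.67, 10.5 and 5.59 CPM in WT and at 3.85, 2.04 and 2.73 CPM in DKO libraries, again without overlap. Its log2 fold change was -1.33 ± 0.31 (adjusted p = 0.0190), and without DKO library 2 or 3 the adjusted p was 0.0567 or 0.0751. In the additional WT libraries Ccl4 was higher than in any numbered WT library, at 15.5 and 10.6 CPM, while Ccl3 was lower than in them, at 10.9 and 12.5 CPM.

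Il10 had the largest difference of the 9 members. Its levels were 7.03, 5.15 and 3.73 CPM in WT and 1.45, 0.372 and 0.195 CPM in DKO libraries, from 291 and 32 counts in all. Every DKO library was below every WT library, with the additional WT libraries, at 4.24 and 3.63 CPM, near the WT range. The log2 fold change was -2.89 ± 0.54 (adjusted p = 0.00897, edgeR), and -4.12 in the male libraries (adjusted p = 0.00037). Counting the additional libraries as WT gave -2.74 (adjusted p = 0.052). In this comparison the call was kept when each library was left out in turn.

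Markers of other cell types that can make Il10, Ccl3 and Ccl4 were counted beside them. The summed level of 8 myeloid markers was 57.8 to 64.5 CPM in untreated WT and 29.6 to 59.4 CPM in untreated DKO libraries. Of these Adgre1, at a mean of 41.4 CPM in WT and 18.1 CPM in DKO libraries, was lower in DKO cells (log2 fold change -1.12 ± 0.17). The other 3 tested did not pass, with Cd14 at 1.12 ± 0.66 (adjusted p = 0.262, edgeR), Lyz2 at 0.54 ± 0.45 (adjusted p = 0.435) and Csf1r at -0.09, and the median of the 4 was 0.22. Fcgr1 was at 0 in 7 of the 12 libraries, and Itgam and Cd14 were under 3 CPM in all. The 4 plasma cell markers summed to 25.1 to 46.6 CPM in WT and 13.6 to 21.1 CPM in DKO libraries, and Prdm1 was lower in DKO cells by a log2 fold change of -1.20 ± 0.27. For Ccl22, which dendritic cells also make, the 6 dendritic cell markers summed to 57.1 to 78.0 CPM in WT and 71.4 to 77.1 CPM in DKO libraries. Of these Zbtb46 was higher in DKO cells (0.40 ± 0.09). Flt3 (-0.44 ± 0.29, adjusted p = 0.321, edgeR) and Xcr1 (0.04 ± 0.38, adjusted p = 0.948) did not pass, while Clec9a and Cd209a stayed under 0.4 CPM, with 0 in 5 and 6 libraries. The basophil and mast cell genes Mcpt8 and Fcer1a were at 0 in all 12 libraries. The 5 natural killer cell markers summed to 1.09 to 4.12 CPM in WT and 0.845 to 1.55 CPM in DKO libraries. Only 1 of these was tested, at -1.49 without overlap between genotypes, and it did not pass. The 8 T cell markers summed to 76.8 to 102 CPM in WT and 47.1 to 81.0 CPM in DKO libraries, nearly all of it Lck. Of the 2 tested T cell markers, 0 passed. The part of such cells in the differences was not tested, and in bulk RNA fewer cells of a type and less RNA per cell cannot be told apart.

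Ebi3 was the second member to be higher in DKO cells. It stood at 62.7, 57.3 and 76.4 CPM in WT and at 103, 111 and 109 CPM in DKO libraries, without overlap and with little spread in DKO cells. The log2 fold change was 0.79 ± 0.10 (adjusted p = 0.00285, edgeR), or 1.73-fold. The additional WT libraries held 125 and 171 CPM, above all untreated DKO libraries, and counting them as WT gave 0.19 (adjusted p = 0.751). Il6 did not differ detectably, with 32.2, 48.1 and 34.0 CPM in WT and 50.4, 30.8 and 28.9 CPM in DKO libraries (0.02 ± 0.22, adjusted p = 0.956). The highest Il6 value of each genotype was in the library that read as female.

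None of the 3 members of the TNF family passed the test in untreated cells. Tnf, a proinflammatory cytokine, was nearly level, with 25.5, 21.5 and 23.4 CPM in WT and 20.7, 22.8 and 18.2 CPM in DKO libraries (-0.12 ± 0.12, adjusted p = 0.539). Lta stood at 6.30, 3.80 and 3.78 CPM in WT and at 4.93, 6.56 and 5.66 CPM in DKO libraries, with overlapping ranges (0.37 ± 0.25, adjusted p = 0.316). Ltb, which anchors lymphotoxin alpha to the membrane, stood at 51.4, 24.4 and 41.7 CPM in WT and at 13.1, 33.6 and 25.9 CPM in DKO libraries (-0.62 ± 0.34, adjusted p = 0.228). Here the lowest library of each genotype was the one that read as female. Ltb passed in 3 of 15 alternatives. Among these were the male libraries alone (-0.56, adjusted p = 0.0174, edgeR) and a fit with a term for sex (-0.64, adjusted p = 0.00262). Both of these were chosen after the data were seen.

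In cells stimulated for 48 h, Ccl22 and Ebi3 were again higher in DKO cells, and no member passed in the other direction. Of the 8 members tested in this comparison 2 passed, both higher, where 11.3% of 14430 genes passed, 5.09% higher and 6.17% lower (edgeR). On the TMM-scaled level the genotypes did not overlap for 5 of the 8, nor for 61.5% of all genes. The median log2 fold change of the 8 was 0.79, beside -0.03 for all genes. Each group held 2 libraries.

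Ccl22 was at 1803 and 1880 CPM in the WT libraries and at 6849 and 6588 CPM in the DKO libraries. Both pairs were tight and far apart. The log2 fold change was 1.97 ± 0.20 (adjusted p = 0.00157, edgeR), or 3.91-fold, close to the difference in untreated cells, which came from other libraries. It ranged from 1.91 to 2.06 over 9 alternatives, all of which kept the call. Ebi3 was at 58.7 and 73.3 CPM in WT and at 167 and 143 CPM in DKO libraries (1.34 ± 0.19, adjusted p = 0.00593), or 2.52-fold higher. Its call was kept in the same 9 alternatives. The dendritic cell markers summed to 39.9 to 48.6 CPM in stimulated WT and 68.0 to 68.5 CPM in stimulated DKO libraries, with Flt3 higher in DKO cells (0.91 ± 0.20, adjusted p = 0.0246, edgeR). Xcr1 (0.73, adjusted p = 0.0594) and Zbtb46 (0.58, adjusted p = 0.0902) did not pass. Their part in the result was not tested.

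Il6, Lta and Tnf were higher in both stimulated DKO libraries than in both WT libraries but did not pass. Il6 stood at 1.51 and 2.62 CPM in WT and at 3.54 and 5.90 CPM in DKO libraries (1.29 ± 0.39, adjusted p = 0.0644). Lta stood at 8.36 and 9.22 CPM in WT and at 18.5 and 11.4 CPM in DKO libraries (0.87, adjusted p = 0.0621). Tnf stood at 19.5 and 15.3 CPM in WT and at 30.8 and 21.8 CPM in DKO libraries (0.70, adjusted p = 0.0829). The first DKO library was the higher one for Lta and Tnf, and the second for Il6. In a single fit over the 10 libraries, which takes the spread from all 4 groups, these 3 passed, with adjusted p-values of 0.028, 0.0411 and 0.0239 in the same order. Leaving out the second DKO library brought Lta (1.24) and Tnf (0.99) past the threshold, and leaving out the first brought Il6 (1.59) and Ltb (-0.67) past it. Il6 also passed without the unnumbered WT library (1.71, adjusted p = 0.0474, edgeR). In these fits 1 genotype is left with 1 library, which is assumed to vary like the libraries of the other genotype, whose spread alone is used.

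For the other members the stimulated groups were close or counts were few. Ltb stood at 46.3 and 62.7 CPM in WT and at 49.1 and 32.5 CPM in DKO libraries (-0.31, adjusted p = 0.408). Ccl3 lay between 7.00 and 8.99 CPM in all 4 libraries (0.23, adjusted p = 0.558), and Ccl4 between 0.874 and 2.34 CPM (-0.70, adjusted p = 0.353). Il10 had 3 counts in WT and 9 counts in DKO libraries, and Ccl17 had 5 and 23 counts, both under the filter. The Ccl17 ratio was 4.40 (95% counting interval 1.64 to 14.8), with 0.782 and 0.357 CPM in DKO and 0.208 and 0.0569 CPM in WT libraries. That interval leaves out the spread between libraries. Without the filter Ccl17 had a log2 fold change of 2.17 and did not pass (adjusted p = 0.127, edgeR).

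**Figure D2:**
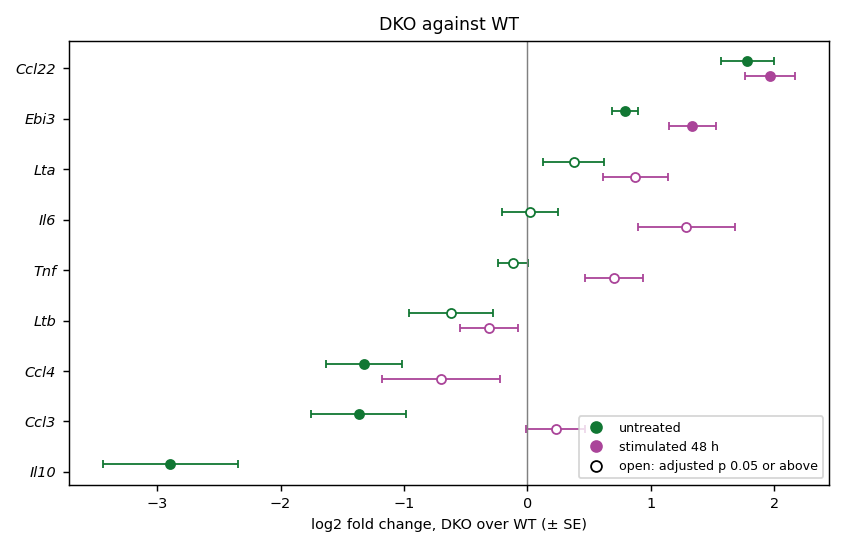
Log2 fold change of DKO over WT with its standard error for the members tested, in untreated (6 libraries) and stimulated cells (4 libraries); filled points passed an adjusted p of 0.05. Ccl22 and Ebi3 lay to the right in both states, and Il10, Ccl3 and Ccl4 lay to the left in untreated cells.

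Stimulated cells were next compared with untreated cells of the same genotype. Untreated cells were not cultured, so effects of 48 h in culture, of the antibodies and of a separate preparation cannot be told apart. In WT cells 6 of the 10 members passed, Ccl22 and Lta higher and Il6, Il10, Ccl4 and Ccl3 lower, where 40.6% of 15006 genes passed (17.8% higher, 22.8% lower, edgeR). In DKO cells 5 of 10 passed, Ccl22, Lta and Ebi3 higher and Il6 and Ccl4 lower, where 33.0% of genes passed (16.2% higher, 16.8% lower). Stimulated and untreated libraries did not overlap on the TMM-scaled level for 8 of 10 members in WT cells and 5 of 10 in DKO cells, beside 66.9% and 54.0% of all genes. Both comparisons come from the fit over 10 libraries. The median log2 fold change of the members was -0.90 in WT and 0.30 in DKO cells, beside -0.02 and -0.01 for all genes.

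Ccl22 rose by a log2 fold change of 1.68 ± 0.21 in WT (adjusted p = 6.2e-05, edgeR) and rose 3.73-fold in DKO cells (adjusted p = 2.9e-05). Stimulated WT cells, at a mean of 1842 CPM, lay within the range of untreated DKO cells, at a mean of 1888 CPM. Counting the additional libraries as WT gave an increase of 1.07 that did not pass (adjusted p = 0.0919). Lta rose by 0.93 in WT (adjusted p = 0.0191) and by 1.47 ± 0.27 in DKO cells (adjusted p = 0.00142). The WT call of Lta was lost without WT library 3 of the untreated cells or without either stimulated WT library, with adjusted p-values from 0.0611 to 0.103, in the male libraries alone (adjusted p = 0.0519), and with the additional libraries counted as WT (0.54, adjusted p = 0.331). Ebi3 rose by 0.60 ± 0.14 in DKO cells (adjusted p = 0.00612), a call lost without the first stimulated DKO library (adjusted p = 0.0512) and when the fit counted the additional libraries as WT (0.59, adjusted p = 0.397), and was 0.02 in WT cells (adjusted p = 0.943).

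Il6 fell most clearly in both genotypes. It went from a mean of 38.1 to 2.06 CPM in WT cells (log2 fold change -4.21 ± 0.35, adjusted p = 2.8e-06, edgeR) and from 36.7 to 4.72 CPM in DKO cells (-2.92 ± 0.32, adjusted p = 2.5e-05). Il10 in WT cells fell from 291 counts over 3 libraries to 3 counts over 2 libraries (adjusted p = 0.000158). The CPM of untreated cells was 65.2 times that of stimulated cells, with a 95% counting interval of 22.1 to 318. In DKO cells, where Il10 was already low, 32 and 9 counts gave no call (-1.42, adjusted p = 0.195). That estimate rests on DKO library 1 of the untreated cells, being -0.20 without it and -0.21 in the male libraries (adjusted p = 0.866 in both, edgeR). Ccl4 fell by 2.04 in WT (adjusted p = 0.00123) and by 1.38 ± 0.42 in DKO cells (adjusted p = 0.0237), the latter call being lost without the first DKO library of the untreated cells or without either stimulated DKO library, with adjusted p-values from 0.0575 to 0.122, and with the additional libraries counted as WT (-1.39, adjusted p = 0.0983). Ccl3 fell by 1.71 in WT cells (adjusted p = 0.00439, edgeR). That call was lost without the unnumbered stimulated WT library (adjusted p = 0.0519) and with the additional libraries counted as WT (-1.37, adjusted p = 0.0794). In DKO cells Ccl3 gave -0.09, and 0.55 without DKO library 1 of the untreated cells (adjusted p = 0.170) or 0.54 in the male libraries (adjusted p = 0.0538).

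Tnf gave -0.42 in WT (adjusted p = 0.103) and 0.43 in DKO cells (adjusted p = 0.0995). Tnf passed in WT cells when either stimulated DKO library was left out of the fit, and in DKO cells without the second of them (0.71, adjusted p = 0.0142). Ltb, with 0.48 in WT and 0.83 in DKO cells, and Ccl17 also did not pass in either genotype. Without DKO library 2 of the untreated cells Ltb passed in DKO cells (1.16, adjusted p = 0.0387, edgeR). Over all alternatives Ltb passed in 3 of 18 in DKO cells and in 1 of 17 in WT cells.

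Markers of other cell types also moved on stimulation. The myeloid markers, which bear on Il10, Ccl3, Ccl4 and Il6, summed to 49.6 to 61.1 CPM in stimulated WT and 38.4 to 41.2 CPM in stimulated DKO libraries. Of 6 tested, 5 had a negative estimate in each genotype (medians -1.28 and -1.03). None passed in WT cells with edgeR, and in DKO cells Cd14 fell (-3.29 ± 1.03, adjusted p = 0.0268) and Adgre1 rose (0.60 ± 0.18, adjusted p = 0.0241). Of the dendritic cell markers Xcr1 rose in WT (1.59 ± 0.33) and in DKO cells (2.32 ± 0.32), and Zbtb46 fell (-1.02 ± 0.14 and -0.82 ± 0.14). Of the plasma cell markers Sdc1 rose in both (1.46 ± 0.34 and 1.86 ± 0.35), Prdm1 fell in WT cells (-1.43 ± 0.33) and Jchain rose in DKO cells (2.14 ± 0.41). The natural killer cell markers summed to 1.37 to 1.66 CPM in stimulated WT and 0.644 to 0.774 CPM in stimulated DKO libraries. Of these 2 were tested in each genotype (medians -3.24 and -3.22), and none passed. The T cell markers summed to 163 to 178 CPM in stimulated WT and 130 to 170 CPM in stimulated DKO libraries, nearly all of it Lck. Of the 2 tested T cell markers, 1 was higher and 0 lower in each genotype. Their part in the changes of the members was not tested.

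**Figure D3:**
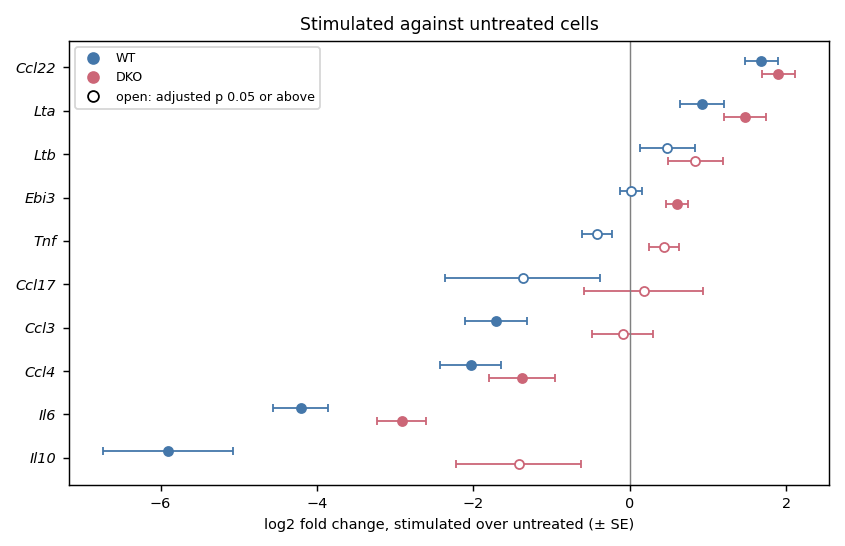
Log2 fold change of stimulated over untreated cells with its standard error for all 10 members in WT and DKO cells; filled points passed an adjusted p of 0.05. Ccl22 and Lta were higher and Il6 and Ccl4 lower in both genotypes, and the DKO value was to the right of the WT value for each member.

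Whether the genotype difference itself changed on stimulation was tested as an interaction in the fit over 10 libraries. No member passed with edgeR, where 0.140% of genes passed, 21 of 15006. At an unadjusted p under 0.05 there were 5 of 10 members, Il10, Tnf, Ccl3, Ebi3 and Il6, beside 12.0% of all genes, and DESeq2 called 1, Il10 (adjusted p = 0.0297). All 10 estimates were positive, as were 55.3% of those of all genes, with a median of 0.75 beside 0.05 for all genes. The smallest adjusted p was that of Il10 (4.48 ± 1.33, adjusted p = 0.261), which rests on 12 counts in stimulated cells. Ccl3 gave 1.63 ± 0.55, Il6 gave 1.29 ± 0.45, Tnf gave 0.86 ± 0.27 and Ebi3 gave 0.58 ± 0.20, with adjusted p-values from 0.277 to 0.308. Ccl3 passed in the male libraries (1.93, adjusted p = 0.0151), and it passed with Il10 when DKO library 1 of the untreated cells was left out, as did Tnf and Ebi3 without the second stimulated DKO library. Over 17 alternatives Ccl3 passed in 4, Il10 in 3, Tnf in 2, and Il6 and Ebi3 in 1 each. For Ccl22 the estimate was 0.22 ± 0.30.

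Ordered by mean level over the 5 groups, neighbours were often not separated. For Ccl22 the order was stimulated DKO, untreated DKO, stimulated WT, additional WT and untreated WT, and of neighbouring groups only untreated DKO and stimulated WT cells overlapped. For Ebi3 it was stimulated DKO, additional WT, untreated DKO, stimulated WT and untreated WT, with overlap within the first pair and within the last pair. For Il6 the additional WT libraries, at 84.2 and 82.5 CPM, stood above both untreated groups, which overlapped, and these above stimulated DKO and then stimulated WT cells. For Il10 untreated and additional WT libraries overlapped and stood above untreated DKO cells, which overlapped with stimulated DKO cells, and stimulated WT cells were lowest. For Ccl4 the order was additional WT, untreated WT, untreated DKO, stimulated WT and stimulated DKO, and untreated DKO and stimulated WT cells overlapped. For Ccl3 untreated WT cells stood apart from the other 4 groups, in which each neighbour overlapped with the next. The additional WT libraries were both above every numbered untreated WT library for 7 of the 10 members, beside 35.5% of 14357 genes. All neighbours overlapped for Tnf, with means from 17.4 to 26.3 CPM.

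Other genes of the same signalling system were counted from lists. For reading the counts, 8.81% of all genes passed higher and 10.6% lower in untreated DKO cells. In stimulated DKO cells the shares were 5.09% and 6.17%. On stimulation 17.8% passed higher and 22.8% lower in WT cells, and 16.2% and 16.8% in DKO cells. Of 81 other cytokine and chemokine ligands, 37 were tested in untreated cells, and 3 were higher and 7 lower in DKO cells (median 0.15). The 4 with the smallest p were the macrophage growth factor gene Csf1 (-1.11 ± 0.12), the dendritic cell growth factor gene Flt3l (-1.06 ± 0.18), the osteopontin gene Spp1 (-1.77 ± 0.34) and the chemokine gene Ccl27a (-1.58 ± 0.32). In stimulated cells 7 were higher and 4 lower of 34 tested (median -0.13), led by Spp1 (-1.58 ± 0.25), Tgfb3 (-2.12 ± 0.39), Flt3l (-1.08 ± 0.22) and Csf2 (3.21 ± 0.67), the last at a mean of 0.158 CPM in WT and 1.45 CPM in DKO cells. On stimulation 12 of 43 were higher and 15 lower in WT, and 11 higher and 13 lower in DKO cells (medians -0.48 and -0.02). Vegfa and Il12b were among those with the smallest p in both genotypes, with Il12b at -3.59 ± 0.43 in WT and -4.35 ± 0.43 in DKO cells.

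Receptors for the 10 members were also measured in the B cells themselves. Of 9 tested in untreated cells, Il6ra (1.12 ± 0.13) and Tnfrsf14 (0.73 ± 0.14) were higher and Il10ra (-0.77 ± 0.15) and Tnfrsf1b (-0.32 ± 0.09) lower in DKO cells (median of the 9, -0.19). In stimulated cells Ccr1, a receptor of CCL3, was lower in DKO cells (-1.77 ± 0.17). Ccr1 stood at a mean of 90.8 CPM in stimulated WT and 24.9 CPM in stimulated DKO cells. In WT cells stimulation raised 4 of 10 receptors and lowered 1, with Ccr1 at 2.84 ± 0.28 and Il6ra at 1.70 ± 0.15. Il6ra rose in DKO cells as well (1.16 ± 0.15), where 3 receptors were higher and 1 lower. The median of the 10 was 0.27 in WT and 0.08 in DKO cells.

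Among 33 tested transcription factors and inhibitors that control cytokine genes, 3 were higher and 12 lower in untreated DKO cells (median -0.08). Nfkbia, an inhibitor of NF-kB, was higher (0.44 ± 0.06), and Nfatc1 (-0.59 ± 0.08), Nfkbiz (-0.52 ± 0.09) and Bhlhe40 (-0.39 ± 0.08) were lower. In stimulated cells 5 of 32 were higher and 2 lower (median 0.16), led by Jun (1.66 ± 0.21), Nr4a1 (1.32 ± 0.19), Batf (0.99 ± 0.18) and Irf8 (-0.95 ± 0.18). Stimulation lowered 19 of 34 in WT cells and 7 in DKO cells, with Atf3 at -4.98 ± 0.32 and -3.43 ± 0.28. It raised 3 and 2 of them, with medians of -0.53 and -0.17.

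Of 20 proteins that bind AU-rich or stem-loop elements of cytokine mRNA, 2 were higher and 4 lower in untreated DKO cells (median -0.02), and 2 were higher and 0 lower in stimulated ones (median -0.05). Hnrnpab was higher in both (0.43 ± 0.07 and 0.76 ± 0.20), and Arid5a, which stabilises Il6 mRNA, was higher in stimulated DKO cells (0.77 ± 0.19). Hnrnpd (-0.45 ± 0.08), Zc3h12d (-0.46 ± 0.08) and Ptbp1 (-0.34 ± 0.07) were lower in untreated DKO cells. Stimulation raised 4 and lowered 5 of the 20 in WT cells, and raised 4 and lowered 3 in DKO cells (medians -0.01 and 0.02). None of the genes in these 4 lists passed the interaction test with edgeR, with 9 of 43 ligands, 3 of 10 receptors, 13 of 34 factors and 2 of 20 binding proteins at an unadjusted p under 0.05, beside 12.0% of all genes.

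Genes with a pattern most like each member were sought by Pearson correlation of log2 CPM over the 10 libraries of the 4 main groups. These values describe the 10 points, which fall in 4 groups, and carry no test. Ccl22 was followed most closely by Tnfrsf18, which encodes the receptor GITR (r = 0.990), and by Polh (r = 0.983). Tnfrsf18 averaged 7.69 CPM in untreated WT, 14.5 in untreated DKO, 13.2 in stimulated WT and 28.0 in stimulated DKO cells. For Ebi3 the nearest genes were Ptprs (r = 0.979) and Nsa2 (r = 0.978), for Il6 Gnpnat1 (r = 0.989) and Stard5 (r = 0.984), and for Lta Pdcd5 (r = 0.980) and Impdh2 (r = 0.977). Ccl3 and Il10 shared Prag1 among their nearest genes, and were each other's nearest member (r = 0.907).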

How the data were processed

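The authors deposited raw counts per Ensembl gene, 1 column per library, in 3 tables, with 12 columns of FPKM values that were not used here and, per the file headers, other columns such as exonic gene length. Per the submitters' processing notes, FastQC 0.10.1, cutadapt 1.9.1, HISAT2 2.2.1, HTSeq 0.6.1 and GRCm39 were used. The strand setting was not given in the sources used here, nor was the annotation release. Gene coordinates beside the additional WT counts are those of GRCm38. Among stimulated cells, 1 WT column carries a number outside the labels' numbering. It entered as WT and is named the unnumbered library.

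CPM here are counts over the plain library total. Fold changes and tests came from edgeR 4.0.16 (R 4.3.3): quasi-likelihood fit, TMM scaling, filterByExpr (minimum count 10, minimum total 15), Benjamini-Hochberg adjustment over all tested genes, threshold 0.05. Genotypes were compared within the untreated and within the stimulated table, and stimulation and the interaction in 1 fit over 10 libraries. Standard errors were obtained by dividing the size of each change by the root of its F statistic. The fits were repeated with RLE scaling, DESeq2 1.42.0, no filter or a stricter filter, a single fit, a replicate block, leaving out each library, and counting the additional WT libraries as WT. A term for sex and male libraries alone were chosen after the data were seen. The scripts were tested on simulated data.

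Members and gene lists were chosen with earlier results of these data known. Named genes were all members, the 4 called genes with the smallest p in each list and comparison, and the 2 genes most correlated with each member. Some genes that this rule names are not reported here.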

Additional observations from a re-analysis of the deposited data

Results flagged for a closer look

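The additional WT libraries enter none of the main comparisons, and 7 of the 10 transcripts had both values there above every numbered untreated WT library, beside 35.5% of 14357 genes. Mean levels were 1342 CPM for Ccl22, 148 CPM for Ebi3, 83.3 CPM for Il6, 79.9 CPM for Ltb, 13.0 CPM for Ccl4, 8.31 CPM for Lta and 0.856 CPM for Ccl17. The summed myeloid markers in these libraries were 179 to 226 CPM, beside 57.8 to 64.5 CPM in the numbered untreated WT libraries. Most of this was Adgre1, at a mean of 196 CPM, while Lyz2, at 3.71 and 3.38 CPM, was lower than in the other 10 libraries. The dendritic cell markers summed to 93.6 to 108 CPM, beside 57.1 to 78.0 CPM, and the T cell markers to 127 to 130 CPM, beside 76.8 to 102 CPM, nearly all of it Lck. The part of such cells, or of a separate preparation, in these levels was not tested.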

How the results depend on the processing

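Over 47 member values and 719 alternatives, 632 kept their direction and side of the threshold, 30 lost the threshold and 33 gained it. Another 24, none of them called, had the opposite sign to the main value. No called value changed sign. The cause of the changes given here was not tested. In untreated cells 2638 genes and 5 members passed; counting the additional WT libraries as WT left 319 and 0. With a term for sex, 4392 genes passed. Leaving out each library gave 923 to 2779 genes and 3 to 5 members. In stimulated cells (1625 genes, 2 members) no filter gave 2847 and 5, a single fit gave 3429 and 5, and leaving out each library gave 576 to 5977 and 2 to 4 (743 genes without WT library 1). For stimulation in WT cells (6097 and 6), the additional libraries gave 2437 and 3, and leaving out each library 3557 to 7031 and 4 to 7. In DKO cells (4952 and 5) they gave 1887 and 3, and leaving out each library 3965 to 5074 and 3 to 6. For the interaction (21 and 0), DESeq2 gave 174 and 1, no filter 491 and 4, the additional libraries 2 genes, leaving out each library 1 to 1244 and 0 to 2, male libraries 62 and 1, and a term for sex 81 and 1.

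Deviations of same-numbered WT and DKO libraries of untreated cells from their group means had correlations of -0.35, -0.35 and 0.14. WT library 2 and DKO library 1, which read as female, had the highest correlation, 0.44. Because sex enters these values, the check cannot decide whether the numbers pair the libraries. With a replicate block, 786 genes and 3 members passed in untreated cells, Ccl3 (adjusted p = 0.0928) and Ccl4 (0.0761) being lost, and 2981 genes for stimulation in DKO cells, with Ccl4 (0.0601) and Ebi3 (0.0939) lost and Ltb gained (0.95, 0.00204). No paired analysis was run for the genotypes in stimulated cells, for stimulation in WT cells or for the interaction. In these, 1 stimulated WT library was entered without a number, because its column number and the labels' numbering differ. Transcripts of a few counts, Ccl17 throughout and Il10 in stimulated cells, are limited by depth.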
